A study of Mus musculus with 6 samples.

Results

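A set of 10 genes that mark subtypes of lung fibroblasts was followed in mouse lung with and without a TGFalpha transgene. They were chosen by name, and all 10 were found among the 24061 gene rows of the count table. Cthrc1, Fap and Meox1 are known from fibroblasts of scarring tissue, Pi16 and Dpt from adventitial fibroblasts, Inmt, Npnt and Col13a1 from alveolar fibroblasts, and Thy1 and Ddr2 from fibroblasts more broadly. RNA was sequenced from 3 lung samples labelled CCSP/TGFalpha, called TGFalpha lungs here, and from 3 labelled CCSP/-, called control lungs. CCSP stands in both genotypes, and the mice of both groups had been on doxycycline for 3 weeks. Age and strain are not given in the sources used here. In the mouse system known by these names, the promoter of the club cell secretory protein (CCSP) directs a doxycycline-controlled activator to lung epithelium, and the activator switches on TGFalpha, a ligand of the epidermal growth factor receptor. Whether each library of a group was a different animal is not stated, so each p-value reflects no more than the variation among these samples, which may be technical.

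As background, fibroblasts of the mouse lung are not all alike. Alveolar fibroblasts lie in the walls of the air sacs beside epithelium and capillaries, while adventitial fibroblasts form cuffs around larger vessels and airways. In scarring lungs a further state appears, which makes much collagen and is known by Cthrc1. In bulk RNA, fewer cells of a type and less RNA per cell cannot be told apart.

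Library totals ran from 21479006 to 24914322 counts. Lung epithelium was evident in all 6 libraries, with summed levels of 9 alveolar type 2 genes between 16589 and 18433 CPM (read counts after scaling each library by its total and TMM factor) in TGFalpha lungs and between 14220 and 18793 CPM in control lungs. None of those 9 was called by edgeR, with 1 higher before adjustment (p under 0.05) and 1 called higher by DESeq2. Fibroblasts were evident as well: Pdgfra, a receptor gene carried by most lung fibroblasts, averaged 360 ± 71.0 CPM in TGFalpha lungs and 294 ± 68.6 CPM in control lungs (SD, n = 3 each), and it was not called (log2 fold change 0.29 ± 0.23, edgeR adjusted p = 0.442). Skeletal muscle transcripts separated replicate 1 of each group from the rest. The summed level of 8 muscle genes was 2204, 69.4 and 64.2 CPM in TGFalpha replicates 1 to 3 and 1296, 51.9 and 62.3 CPM in control replicates 1 to 3.

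Of the 10 markers, 2 were higher in TGFalpha lungs, Cthrc1 and Fap, and none was lower. The test was the quasi-likelihood test of edgeR across 16089 genes with a Benjamini-Hochberg adjusted p under 0.05 as the threshold, which called 8.33% of all genes, 5.03% as higher and 3.29% as lower. With all 6 libraries, no marker was lower by DESeq2 or limma-voom. Nor was any lower before adjustment in edgeR, where 3 were higher and 0 lower at p under 0.05. Cthrc1 and Fap were also the only markers whose libraries did not overlap between the groups, a separation that 33.2% of all tested genes showed and that 17.7% showed with TGFalpha above. The other 8 markers overlapped. The median log2 fold change of the 10 was -0.03, against 0.01 over all genes tested. Without control replicate 3 edgeR called none of the 10 and 1.44% of all genes. In that fit 2 markers were higher at an unadjusted p under 0.05. Only Cthrc1 was called without TGFalpha replicate 1, 2 or 3, and also when replicate 1 of both groups was left out. At an unadjusted p under 0.05 in edgeR, Pi16 was lower without TGFalpha replicate 1. Npnt was so without TGFalpha replicate 3, and Inmt without control replicate 1, with 3 markers higher in each of these fits. Without replicate 1 of both groups, Pi16 and Inmt were lower before adjustment and 2 markers higher.

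**Figure D1:**
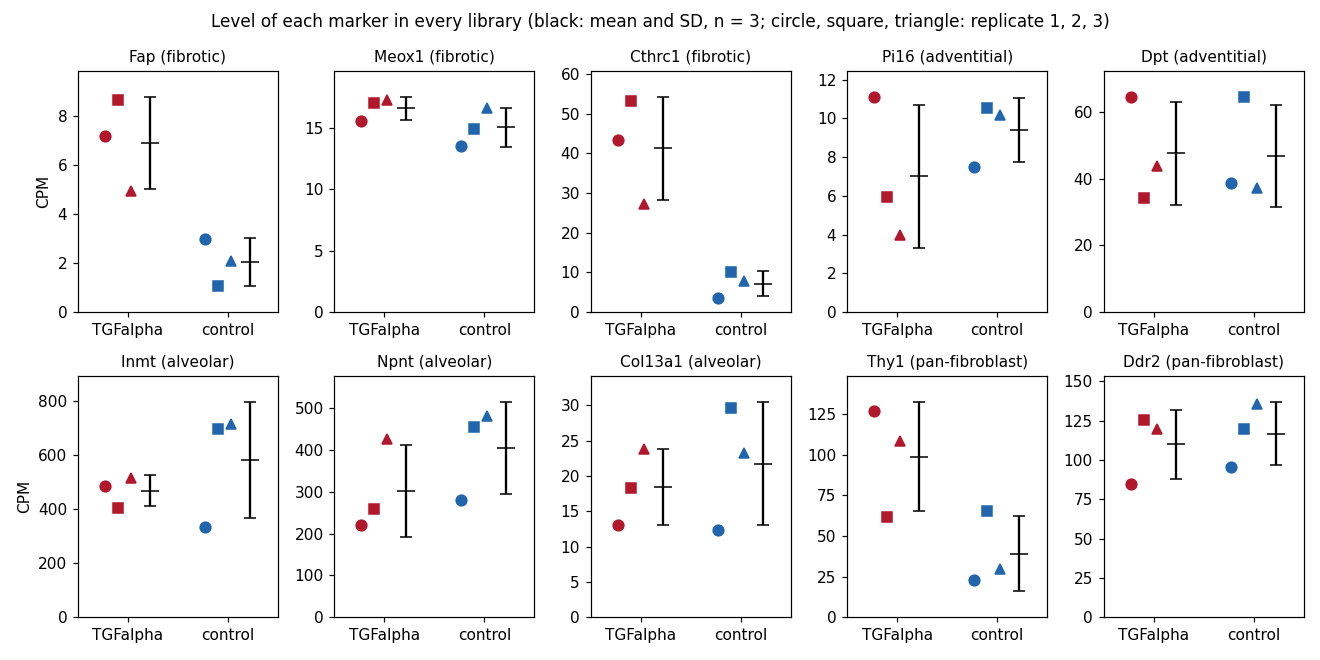
Level of each marker in CPM (vertical axis, from 0) in the 3 TGFalpha and 3 control libraries, with the mean and SD in black (n = 3). The groups are apart for Fap and Cthrc1 and overlap for the other 8 genes.

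Cthrc1 showed the largest difference of the 10. It encodes a secreted protein with a short collagen-like repeat, and it lies on mouse chromosome 15 from 39076932 to 39087121 (GRCm38; gene ID 68588). Its level was 43.4, 53.1 and 27.3 CPM in TGFalpha replicates 1 to 3, against 3.69, 10.1 and 7.85 CPM in control replicates 1 to 3. Every TGFalpha library lay well above every control library. The means were 41.2 ± 13.1 CPM in TGFalpha lungs and 7.20 ± 3.24 CPM in control lungs (SD, n = 3 each), a 5.73-fold difference with a log2 fold change of 2.52 ± 0.39 (SE; 95% interval 1.63 to 3.41; edgeR adjusted p = 0.0098). The call was lost without control replicate 3 (log2 fold change 2.58, edgeR adjusted p = 0.061). It held without any other 1 library, with adjusted p between 0.0099 and 0.042. With 1 library left out, the log2 fold change ranged from 2.19 to 2.84.

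Fap was the other marker that rose. Fibroblast activation protein is a serine protease on the surface of activated fibroblasts, and its gene lies on chromosome 2 from 62500936 to 62575509 (gene ID 14089). The counts were small, with 169, 211 and 118 reads in TGFalpha replicates 1 to 3 and 75, 23 and 46 reads in control replicates 1 to 3. These correspond to 7.18, 8.67 and 4.94 CPM in TGFalpha lungs and to 3.01, 1.05 and 2.10 CPM in control lungs. The lowest TGFalpha library stood above the highest control library, with less of a gap than for Cthrc1. The log2 fold change was 1.75 ± 0.42 (SE; 95% interval 0.79 to 2.71; edgeR adjusted p = 0.043). This call was close to the threshold. It was lost without TGFalpha replicate 1, 2 or 3 (edgeR adjusted p = 0.12, 0.11 and 0.053). It was also lost without control replicate 2 or 3 (0.11 and 0.16), and when replicate 1 of both groups was left out (0.066). With 1 library left out, the log2 fold change ranged from 1.44 to 2.12, and it was 1.76 without control replicate 3.

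Meox1 did not follow Cthrc1 and Fap. It encodes a homeobox transcription factor that is known from activated fibroblasts of the mouse heart, and it lies on chromosome 11 from 101877510 to 101894354 (gene ID 17285). Its level was 15.5, 17.1 and 17.2 CPM in TGFalpha replicates 1 to 3 and 13.5, 14.9 and 16.7 CPM in control replicates 1 to 3. The ranges overlapped, and the log2 fold change was 0.14 ± 0.16 (edgeR adjusted p = 0.60). Its 95% interval, from -0.22 to 0.51, was the narrowest of the 10. The related gene Meox2 averaged 14.5 ± 1.97 CPM in TGFalpha lungs and 14.3 ± 5.63 CPM in control lungs (log2 fold change 0.02, edgeR adjusted p = 0.97).

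Thy1 was higher on average in TGFalpha lungs without passing the test. It encodes the surface glycoprotein CD90, which in the mouse is carried by fibroblasts and also by T cells and neurons, and it lies on chromosome 9 from 44043384 to 44048579 (gene ID 21838). Its level was 126, 61.5 and 108 CPM in TGFalpha replicates 1 to 3, against 22.9, 65.3 and 29.5 CPM in control replicates 1 to 3. TGFalpha replicate 2 and control replicate 2 met in the middle, and the other 2 libraries of each group were far apart. The log2 fold change was 1.33 ± 0.41 (SE; 95% interval 0.39 to 2.28; edgeR adjusted p = 0.085). Thy1 passed with DESeq2 (adjusted p = 0.0037) and in edgeR without control replicate 2 (log2 fold change 1.92, adjusted p = 0.047). None of 10 T cell genes was called by edgeR, and before adjustment 0 were higher and 1 lower at p under 0.05. Their summed level ranged from 88.4 to 155 CPM in TGFalpha lungs and from 137 to 164 CPM in control lungs, and DESeq2 called 1 of them lower. Within TGFalpha lungs replicate 2 had the highest T cell sum and the lowest Thy1, and within control lungs replicate 1 had the lowest of both. The part of T cells in the Thy1 level was not tested. Of neuron genes, Uchl1 averaged 7.29 ± 1.04 CPM in TGFalpha lungs and 5.53 ± 0.38 CPM in control lungs, and Elavl4 averaged 0.54 ± 0.20 CPM in TGFalpha lungs and 1.9 ± 0.29 CPM in control lungs. None of the 3 neuron genes tested was called in edgeR, with 1 lower before adjustment (p under 0.05) and 1 called lower by DESeq2.

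The collagen receptor gene Ddr2 was not called. The receptor is a tyrosine kinase activated by fibrillar collagen, and its gene lies on chromosome 1 from 169972307 to 170110836 (gene ID 18214). It was at 84.8, 125 and 120 CPM in TGFalpha replicates 1 to 3 and at 95.5, 119 and 135 CPM in control replicates 1 to 3. The lowest library of each group was its replicate 1, and the groups overlapped. The log2 fold change was -0.09 ± 0.20 (95% interval -0.55 to 0.38; edgeR adjusted p = 0.81). Ddr1, the other collagen receptor of this kind and known mainly from epithelium, averaged 35.5 ± 3.94 CPM in TGFalpha lungs and 24.3 ± 2.53 CPM in control lungs. All TGFalpha libraries were above all controls, but Ddr1 was not called (log2 fold change 0.55 ± 0.16, edgeR adjusted p = 0.073).

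Promoters were at hand for part of the markers and were compared for short motifs. RefSeq sequences (GRCm38.p6) from 250 bases before to 50 bases after a start were found for 6 of the 10 genes: the adventitial markers Pi16 and Dpt, the alveolar markers Inmt, Npnt and Col13a1, and Ddr2. The Ddr2 sequence, at chr1:170088895-170089194 (minus strand), lay at a start within the gene and not at its 5′ end (170110836), which was not searched. The starts used for Pi16 and Col13a1 also lay within the gene, but their sequences spanned its 5′ end. Npnt had 2 sequences, 1 at the 5′ end and 1 within the gene. The motif CAGCTG, an E-box of the kind bound by basic helix-loop-helix factors such as the fibroblast factor Tcf21, was present in those of Pi16, Dpt and Inmt and absent from those of Npnt, Col13a1 and Ddr2. It was found in 16.3% of all 32851 promoters of the same length. None of the 6 genes had TGANTCA (AP-1, in 7.81% of all promoters), GGAATG (TEAD, 14.7%) or CAGACA (SMAD, 21%) there. Both strands were searched. The 3 promoters with the E-box are printed to show where it stands, in capitals, 5′ to 3′ on the strand of the gene: Pi16 at chr17:29318632-29318931 (plus strand), Dpt at chr1:164796413-164796712 (plus strand) and Inmt at chr6:55174941-55175240 (minus strand).
Pi16: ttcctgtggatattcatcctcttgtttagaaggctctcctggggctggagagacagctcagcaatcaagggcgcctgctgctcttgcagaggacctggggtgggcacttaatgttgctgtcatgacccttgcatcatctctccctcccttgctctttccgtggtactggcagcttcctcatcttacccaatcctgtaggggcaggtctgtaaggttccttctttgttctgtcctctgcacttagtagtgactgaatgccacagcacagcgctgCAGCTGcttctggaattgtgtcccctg
Dpt: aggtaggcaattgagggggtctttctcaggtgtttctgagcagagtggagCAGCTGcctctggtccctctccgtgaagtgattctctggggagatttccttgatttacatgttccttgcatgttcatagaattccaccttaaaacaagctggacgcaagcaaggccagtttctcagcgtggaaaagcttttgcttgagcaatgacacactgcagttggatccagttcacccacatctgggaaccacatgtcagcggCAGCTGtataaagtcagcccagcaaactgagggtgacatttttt
Inmt: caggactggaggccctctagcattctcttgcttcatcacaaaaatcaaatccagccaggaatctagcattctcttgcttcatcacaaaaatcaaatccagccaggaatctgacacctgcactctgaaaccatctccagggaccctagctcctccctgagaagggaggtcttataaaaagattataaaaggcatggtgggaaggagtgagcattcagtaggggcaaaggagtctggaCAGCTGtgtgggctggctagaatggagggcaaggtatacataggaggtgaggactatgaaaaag
Dpt held the E-box at 2 places, and Pi16 and Inmt at 1 each. Tcf21 itself averaged 29.7 ± 4.28 CPM in TGFalpha lungs and 45.4 ± 11.3 CPM in control lungs and was not called (log2 fold change -0.61 ± 0.21, edgeR adjusted p = 0.11), and passed as lower only without control replicate 1 (-0.80, adjusted p = 0.049) among the fits run. A match of letters is not a binding site.

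The adventitial markers did not separate the groups. Pi16 encodes peptidase inhibitor 16, a protein of the CAP family, on chromosome 17 from 29318796 to 29328903 (gene ID 74116). Its level was 11.1, 5.96 and 3.98 CPM in TGFalpha replicates 1 to 3 and 7.50, 10.5 and 10.2 CPM in control replicates 1 to 3. TGFalpha replicate 1 had the highest level of all 6 libraries and the other 2 TGFalpha libraries the lowest. The log2 fold change was -0.42 ± 0.37 (95% interval -1.28 to 0.43; edgeR adjusted p = 0.50). Dpt encodes dermatopontin, a matrix protein that binds decorin, on chromosome 1 from 164796663 to 164824274 (gene ID 56429). It was at 64.6, 34.3 and 43.9 CPM in TGFalpha replicates 1 to 3 and at 38.7, 64.5 and 37.1 CPM in control replicates 1 to 3. One library of each group, TGFalpha replicate 1 and control replicate 2, was high and the rest were alike, with a log2 fold change of 0.03 ± 0.29 (95% interval -0.63 to 0.68; edgeR adjusted p = 0.96). TGFalpha replicate 1, where Pi16 and Dpt peaked, also held the most skeletal muscle transcript, while control replicate 1, with the second most, had the lowest Pi16 of its group. The part of muscle tissue in these levels was not tested. Without replicate 1 of either group the log2 fold change was -1.06 for Pi16 and -0.38 for Dpt (edgeR adjusted p = 0.11 and 0.53). For Pi16, 3.91% of the exon bases in the GENCODE annotation overlapped a gene on the opposite strand, and reads there cannot be assigned to 1 of them without a stated strand setting.

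Levels of the 3 alveolar markers were lower on average in TGFalpha lungs, and none of them passed. Inmt encodes a methyltransferase of tryptamine and related amines, on chromosome 6 from 55170627 to 55174990 (gene ID 21743). It was at 485, 406 and 518 CPM in TGFalpha replicates 1 to 3, against 334, 696 and 717 CPM in control replicates 1 to 3. All TGFalpha libraries lay between control replicate 1 and the other 2 controls, and the log2 fold change was -0.31 ± 0.28 (95% interval -0.96 to 0.34; edgeR adjusted p = 0.51). Npnt encodes nephronectin, a basement membrane ligand of the integrin that contains the alpha 8 chain, on chromosome 3 from 132881745 to 132950291 (gene ID 114249). It was at 221, 258 and 427 CPM in TGFalpha replicates 1 to 3 and at 279, 454 and 481 CPM in control replicates 1 to 3. TGFalpha replicate 3 lay above control replicate 1, while the other 2 TGFalpha libraries were below all controls (log2 fold change -0.42 ± 0.29, 95% interval -1.10 to 0.25, edgeR adjusted p = 0.39). Col13a1 encodes a collagen that spans the cell membrane, on chromosome 10 from 61838234 to 61979206 (gene ID 12817). It was at 13.1, 18.3 and 23.9 CPM in TGFalpha replicates 1 to 3 and at 12.4, 29.6 and 23.3 CPM in control replicates 1 to 3. The groups overlapped over most of their range (log2 fold change -0.24 ± 0.33, 95% interval -1.001 to 0.52, edgeR adjusted p = 0.68). Control replicate 1 was the lowest control library for all 3 genes. With 1 library left out, the log2 fold change ranged from -0.60 to -0.14 for Inmt and from -0.76 to -0.24 for Npnt.

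Part of the genes of alveolar type 1 epithelium, which shares the air sac wall with these fibroblasts, were lower in TGFalpha lungs. Of 10, 3 fell and 0 rose in edgeR, with 8 lower and 1 higher before adjustment (p under 0.05), while DESeq2 called 7 lower and 1 higher. Their summed level ranged from 2033 to 3296 CPM in TGFalpha lungs and from 3640 to 5323 CPM in control lungs. Emp2, a membrane protein gene of these cells, averaged 618 ± 143 CPM in TGFalpha lungs and 1184 ± 214 CPM in control lungs. Of 10 endothelial genes 5 fell in edgeR, with all 10 lower before adjustment (p under 0.05) and all 10 called lower by DESeq2. The sums ran from 1744 to 3204 CPM in TGFalpha lungs and from 3719 to 6702 CPM in control lungs. Without TGFalpha replicate 1 or 2, or control replicate 2 or 3, edgeR called 0 genes of either list lower, with 5 to 7 type 1 genes and 8 or 9 endothelial genes lower at an unadjusted p under 0.05. It called 9 endothelial genes lower without control replicate 1 and 5 type 1 genes without TGFalpha replicate 3. The part of these cells in the levels of Npnt, Inmt and Col13a1 was not tested.

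**Figure D2:**
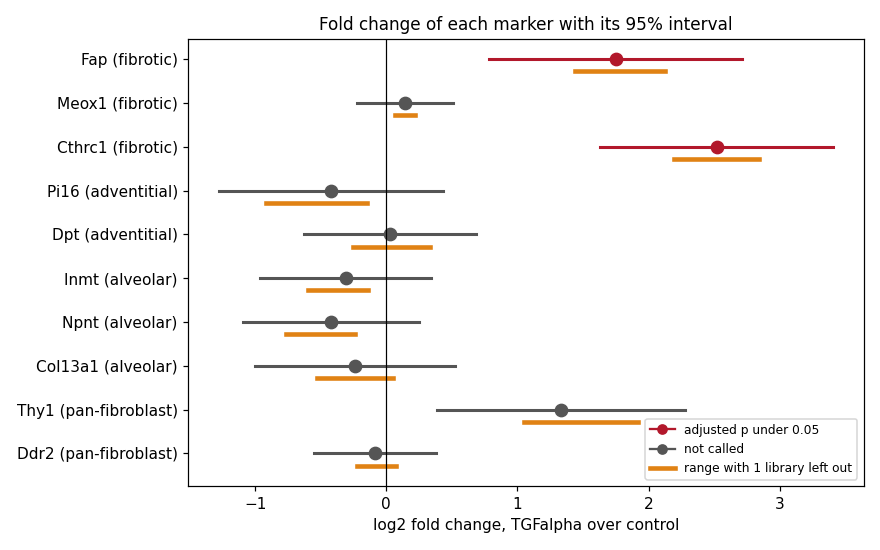
Log2 fold change of TGFalpha over control (horizontal axis) for each marker, with the 95% interval of the edgeR fit as a line and the range with 1 library left out in orange. The intervals of Cthrc1, Fap and Thy1 lie above 0; of these, Thy1 did not pass after adjustment.

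The markers differed widely in level. Per kilobase of exon, Inmt was the highest marker in both groups, at 436 ± 53.3 CPM per kilobase in TGFalpha lungs and 541 ± 200 CPM per kilobase in control lungs, followed by Npnt at 62.9 ± 22.8 CPM per kilobase in TGFalpha lungs and 84.3 ± 22.8 CPM per kilobase in control lungs. Cthrc1 took the fourth place in TGFalpha lungs, with 35.4 ± 11.2 CPM per kilobase, and the eighth in control lungs, with 6.18 ± 2.78 CPM per kilobase. Thy1 stood at 52.6 ± 17.9 CPM per kilobase in TGFalpha lungs, the third place, and at 20.9 ± 12.2 CPM per kilobase in control lungs, the fourth. Dpt stood at 27.6 ± 9.002 CPM per kilobase in TGFalpha lungs and at 27.1 ± 8.92 CPM per kilobase in control lungs, just above Thy1 there and below Cthrc1 in TGFalpha lungs. Ddr2 followed at 12.8 ± 2.56 CPM per kilobase in TGFalpha lungs and 13.6 ± 2.34 CPM per kilobase in control lungs. Meox1 was at 7.46 ± 0.42 CPM per kilobase in TGFalpha lungs and 6.75 ± 0.70 CPM per kilobase in control lungs, and Col13a1 was at 5.76 ± 1.68 CPM per kilobase in TGFalpha lungs and 6.81 ± 2.73 CPM per kilobase in control lungs. The lowest markers were Fap, at 2.52 ± 0.68 CPM per kilobase in TGFalpha lungs and 0.75 ± 0.36 CPM per kilobase in control lungs, and Pi16, at 1.24 ± 0.65 CPM per kilobase in TGFalpha lungs and 1.66 ± 0.29 CPM per kilobase in control lungs. Neighbours in this order that differed by less than the larger of their SDs were Npnt and Thy1, Thy1 and Cthrc1, and Cthrc1 and Dpt in TGFalpha lungs, and Dpt and Thy1, Thy1 and Ddr2, Col13a1 and Meox1, and Meox1 and Cthrc1 in control lungs. The order was the same with the longest transcript in place of all exons.

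The balance between subtypes was read within each library, where library scaling cancels. The mean log2 CPM of Inmt, Npnt and Col13a1 minus that of Pi16 and Dpt was 2.06, 3.12 and 3.72 in TGFalpha replicates 1 to 3 and 2.62, 3.02 and 3.37 in control replicates 1 to 3. The TGFalpha libraries lay on both sides of the controls, with means of 2.97 ± 0.84 in TGFalpha lungs and 3.00 ± 0.37 in control lungs (SD, n = 3 each). Their difference, -0.03, was 0.42 without TGFalpha replicate 1, 0.15 without control replicate 3 and 0.23 without replicate 1 of either group, so its sign rested on single libraries. Counts of Cthrc1 per count of Npnt, a ratio chosen after the values were seen, were 0.196, 0.206 and 0.0639 in TGFalpha replicates 1 to 3 and 0.0132, 0.0222 and 0.0163 in control replicates 1 to 3. The groups did not overlap in that ratio. They did not overlap in Cthrc1 alone either, so the ratio is not separate evidence of a shift.

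**Figure D3:**
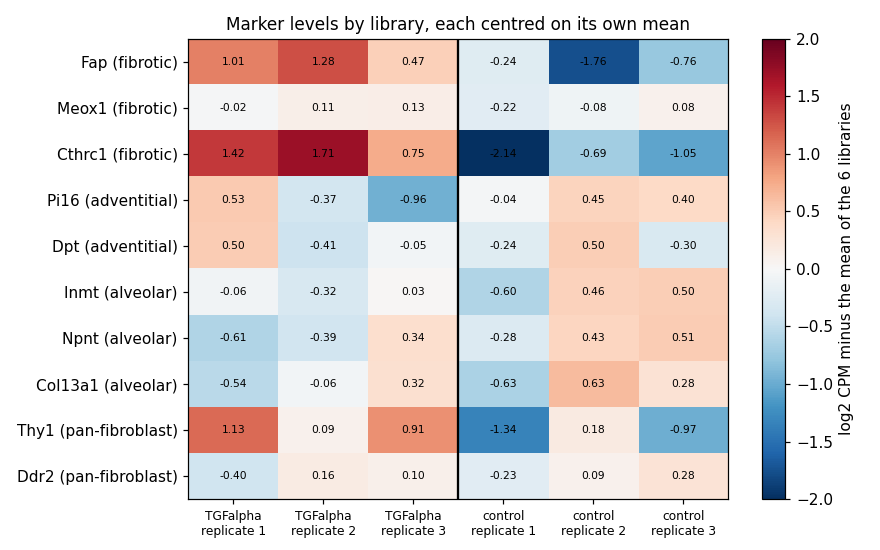
Log2 CPM of each marker in each library minus the mean of its 6 libraries (colour scale and printed value), TGFalpha libraries left of the line. Cthrc1 and Fap change sign at the line, while Inmt, Npnt and Col13a1 are lower in control replicate 1 than in the other control libraries.

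Across the 6 libraries, the profiles of Inmt, Npnt and Col13a1 were among the nearest to each other. Likeness was the root mean square difference of log2 CPM after each gene was centred on its own mean. Of 45 pairs of markers, Meox1 and Ddr2 were nearest (0.19), followed by Npnt and Col13a1 (0.23), Inmt and Col13a1 (0.28) and Inmt and Npnt (0.29). Fap and Cthrc1 were 0.92 apart, since Fap was lowest in control replicate 2 and Cthrc1 in control replicate 1. Genes with little spread are near each other by construction, and the points share their libraries. Among all tested genes with a mean of at least 5 CPM, Inmt was nearest to Slc38a5 (0.05), an amino acid transporter gene that was also on the alveolar fibroblast list, and Npnt to Gm4956 (0.07). Cthrc1 was nearest to Bmper (0.14), which encodes a secreted regulator of BMP signalling, where the median distance of Cthrc1 to all candidates was 1.39. That median was smaller for markers with less spread, at 0.48 for Inmt, 0.36 for Ddr2 and 0.29 for Meox1. Fap was nearest to Angptl4 (0.16), which encodes a secreted inhibitor of lipoprotein lipase, and Thy1 to P3h4 (0.26), which encodes a partner of collagen-modifying enzymes. The nearest of the others were at like distances, Pi16 to Pop4 (0.12), Dpt to Thap3 (0.08), Col13a1 to Cttnbp2 (0.08), Meox1 to Kdm3a (0.03) and Ddr2 to Zfp865 (0.05).

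Other genes of the same fibroblast subtypes were read from lists. These were chosen with earlier results of the same data known, so their counts are descriptions and not separate evidence. Over all genes tested, edgeR called 5.03% higher and 3.29% lower. Of 20 tested genes of fibrotic fibroblasts, a list that leaves out the 10 markers, 15 rose in edgeR, with a median log2 fold change of 2.45 against 0.01 for all genes tested. None fell in edgeR, before or after adjustment, and none fell with DESeq2 or limma-voom. Tnc, the gene of the matrix protein tenascin C, averaged 982 ± 187 CPM in TGFalpha lungs and 23.6 ± 6.36 CPM in control lungs (log2 fold change 5.38 ± 0.28). Thbs2, which encodes thrombospondin 2, averaged 73.1 ± 18.8 CPM in TGFalpha lungs and 2.25 ± 0.54 CPM in control lungs. The collagen chain gene Col5a2 averaged 655 ± 145 CPM in TGFalpha lungs and 109 ± 8.83 CPM in control lungs. Cthrc1, at a log2 fold change of 2.52, was near the median of this list, Fap below it and Meox1 near its lower end. Among the 5 tested genes that did not pass was Postn, the periostin gene, at 246 ± 23.5 CPM in TGFalpha lungs and 324 ± 82.5 CPM in control lungs (log2 fold change -0.40 ± 0.20, edgeR adjusted p = 0.25; named after its value was seen).

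Genes found in most fibroblasts were either higher in TGFalpha lungs or not called. Of 16 tested, 10 rose in edgeR, with a median log2 fold change of 1.29. None fell in edgeR, before or after adjustment, and none fell with DESeq2 or limma-voom. The collagen chain gene Col1a2 averaged 1228 ± 249 CPM in TGFalpha lungs and 206 ± 41.3 CPM in control lungs, and the gelatinase gene Mmp2 averaged 346 ± 51.0 CPM in TGFalpha lungs and 106 ± 9.81 CPM in control lungs. Fbln2, which encodes the matrix protein fibulin 2, averaged 82.2 ± 33.1 CPM in TGFalpha lungs and 8.84 ± 1.91 CPM in control lungs. Pdgfra, named above, was among the 6 that did not pass. Without control replicate 3 the number that rose was 5.

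Adventitial genes other than Pi16 and Dpt went both ways. Of 16 tested, 6 rose and 1 fell, with a median log2 fold change of 0.56. Serpinf1, which encodes a secreted serpin, averaged 79.2 ± 26.3 CPM in TGFalpha lungs and 14.4 ± 2.89 CPM in control lungs (log2 fold change 2.45 ± 0.28, edgeR adjusted p = 0.0031). Lum, which encodes the collagen-binding proteoglycan lumican, averaged 98.4 ± 20.99 CPM in TGFalpha lungs and 13.8 ± 7.56 CPM in control lungs, and Gfpt2, an enzyme gene of the hexosamine pathway, 47.1 ± 13.8 CPM in TGFalpha lungs and 11.5 ± 2.96 CPM in control lungs. Dpp4, a close relative of Fap and a marker of Pi16-positive cells, fell, with 96.0 ± 28.8 CPM in TGFalpha lungs and 174 ± 14.1 CPM in control lungs (log2 fold change -0.86 ± 0.22, edgeR adjusted p = 0.047). The Dpp4 call was lost without TGFalpha replicate 1 or 2 and without control replicate 1, 2 or 3 (adjusted p between 0.071 and 0.18). No adventitial gene fell without TGFalpha replicate 2 or any 1 control library, with 3 or 4 lower before adjustment (p under 0.05). Without control replicate 3 the number of adventitial genes that rose was 3.

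Of 15 tested alveolar fibroblast genes, 1 rose and 0 fell in edgeR, with 5 lower before adjustment (p under 0.05), while DESeq2 called 3 lower and limma-voom 1. The list had a median log2 fold change of -0.22, close to those of Inmt, Npnt and Col13a1. Wnt2, a Wnt ligand gene, was the 1 that rose, with 53.2 ± 4.41 CPM in TGFalpha lungs and 23.8 ± 10.04 CPM in control lungs (log2 fold change 1.16 ± 0.29, edgeR adjusted p = 0.049), and passed in no fit with 1 library left out other than that without control replicate 1. Itga8, which encodes the alpha 8 chain of the nephronectin receptor, averaged 144 ± 59.6 CPM in TGFalpha lungs and 287 ± 92.0 CPM in control lungs (log2 fold change -0.99 ± 0.35, edgeR adjusted p = 0.11) and passed as lower with DESeq2 (adjusted p = 0.014). In edgeR 1 alveolar gene fell without TGFalpha replicate 3 and 2 without control replicate 1. Of 8 tested peribronchial fibroblast genes, 2 rose and 1 fell, with a median of -0.37. Wif1, a secreted Wnt inhibitor gene, fell to 5.22 ± 1.32 CPM in TGFalpha lungs, against 23.4 ± 5.52 CPM in control lungs (log2 fold change -2.16 ± 0.27, edgeR adjusted p = 0.0046), and a second gene fell with it without TGFalpha replicate 3. Lgr5 averaged 9.34 ± 2.27 CPM in TGFalpha lungs and 3.91 ± 0.34 CPM in control lungs, and Mapk4 averaged 3.93 ± 1.49 CPM in TGFalpha lungs and 0.55 ± 0.20 CPM in control lungs. Neither Lgr5 nor Mapk4 passed without TGFalpha replicate 1 or 2 or control replicate 2 or 3, and Lgr5 not without control replicate 1 (adjusted p between 0.050 and 0.13).

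**Figure D4:**
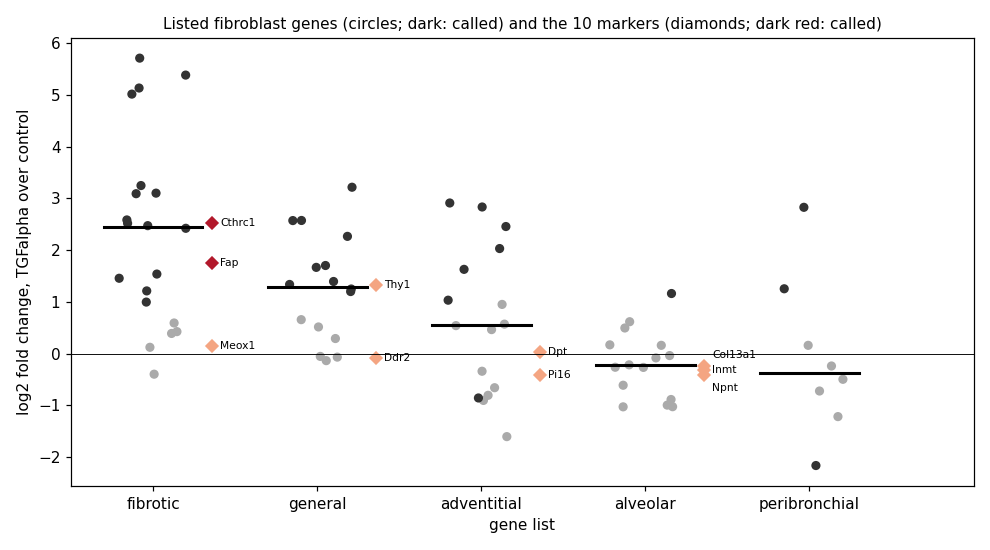
Log2 fold change of TGFalpha over control (vertical axis) for the tested genes of 5 fibroblast gene lists (circles, dark where called; bar, list median) and for the 10 markers beside the list of their subtype (diamonds). The medians are 2.45 for fibrotic, 1.29 for general, 0.56 for adventitial, -0.22 for alveolar and -0.37 for peribronchial genes, and Cthrc1, Fap and Thy1 are the markers highest on the axis.

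Among 12 tested relatives and partners of the markers, 2 rose and 0 fell in edgeR, with 2 lower before adjustment (p under 0.05), while DESeq2 called 3 lower and limma-voom 0. Crispld1, which like Pi16 encodes a protein of the CAP family, averaged 9.61 ± 1.48 CPM in TGFalpha lungs and 2.72 ± 0.21 CPM in control lungs (log2 fold change 1.82 ± 0.25, edgeR adjusted p = 0.0065). Nnmt, a methyltransferase gene related to Inmt, averaged 5.52 ± 1.55 CPM in TGFalpha lungs and 0.98 ± 0.24 CPM in control lungs (log2 fold change 2.49 ± 0.37, edgeR adjusted p = 0.0090). The Nnmt call was lost without control replicate 2 or 3 (adjusted p = 0.051 and 0.059), which left 1 of the list higher in each of these fits. In edgeR 2 of the list fell without control replicate 1 and 1 without TGFalpha replicate 3. Egfl6, which encodes a relative of nephronectin, averaged 160 ± 34.7 CPM in TGFalpha lungs and 89.9 ± 30.3 CPM in control lungs, with all TGFalpha libraries above the controls and no call (log2 fold change 0.83 ± 0.28, edgeR adjusted p = 0.10), though DESeq2 called it (0.022).

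Markers of neighbouring mesenchymal and surface cells varied as well. Of 10 smooth muscle and pericyte genes Tagln rose and Myh11 fell, with sums from 413 to 690 CPM in TGFalpha lungs and from 238 to 441 CPM in control lungs. The Tagln call was lost without control replicate 2 or 3 (edgeR adjusted p = 0.069 and 0.064). No gene of that list fell without TGFalpha replicate 1 or 2 or control replicate 2 or 3, with 1 or 2 lower before adjustment (p under 0.05). Of 8 tested mesothelial genes, Wt1 rose and Krt19 fell, with sums from 502 to 652 CPM in TGFalpha lungs and from 299 to 587 CPM in control lungs. Wt1, a transcription factor gene on the mesothelial list, was at 144, 131 and 84.9 CPM in TGFalpha replicates 1 to 3. It was at 11.2, 12.7 and 0.73 CPM in control replicates 1 to 3 (log2 fold change 3.86 ± 0.79, edgeR adjusted p = 0.027). Both Wt1 and Myh11 were named after their values were seen. The sums of the list overlapped between the groups, unlike Wt1, and which cells carried Wt1 was not tested. Control replicate 3 had the least of Wt1, Msln, Upk3b, Upk1b and Lrrn4 of all 6 libraries. The log2 fold change of Krt19 was -0.66 without that library and -0.64 with all. It was also the only single library without which neither Cthrc1 nor Fap was called. Their log2 fold changes in that fit were 2.58 and 1.76, against 2.52 and 1.75 with all libraries. Without TGFalpha replicate 1 or 2 or control replicate 2, edgeR called no mesothelial gene higher, and in each of these fits 2 were so before adjustment (p under 0.05). The Krt19 call was lost in every fit with 1 library left out other than that without TGFalpha replicate 1. It was also lost with library totals, no filter and the replicate block (edgeR adjusted p = 0.051, 0.055 and 0.064). In the robust edgeR fit no mesothelial gene was called higher, so the Wt1 call was lost there, with 2 genes higher before adjustment. None of 6 genes of leukocytes in general was called in edgeR, with 1 lower before adjustment (p under 0.05) and 1 called lower by DESeq2. The part of these cells in the levels of the 10 markers was not tested.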

How the data were processed

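Bulk RNA-seq of 3 TGFalpha and 3 control mouse lung samples was used. The authors deposited raw counts per gene ID; per the submitters' processing notes, bcl2fastq, CASAVA 1.8, TopHat and DESeq were used with the mm10 build, and the counter, its strand setting and the annotation are not given in the sources used here. Names were matched through RefSeq GRCm38.p6 for 23976 of 24061 IDs; the 85 unnamed IDs held between 1.73% and 3.8% of the counts of a library and stayed in the fit. No 2 libraries of the same group agreed within sampling noise.

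Counts were scaled by TMM, filtered with filterByExpr by group and fitted in edgeR 4.0.16 under R 4.3.3 (quasi-likelihood F test, TGFalpha against control, Benjamini-Hochberg adjustment over 16089 genes, threshold 0.05). CPM values are on TMM-scaled library sizes. For the distances between profiles, log2 CPM used a prior count of 2. For the balance between subtypes and the plot of centred marker levels by library, log2 CPM was taken without a prior count. Levels per kilobase used exon lengths from GENCODE M21. Errors after ± are SDs for levels and standard errors for log2 fold changes. Alternatives were scaling by DESeq2 1.42.0 size factors or by library totals alone, a filter of 1 CPM in 3 libraries or none, the DESeq2 Wald test, voom in limma 3.58.1, the replicate number as a block, a robust fit, and libraries left out. The fit was tested on simulated data.

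The 10 markers and all gene lists were chosen with earlier results of these data known. Named beside the markers are, of each fibroblast list, up to 3 genes per direction with the smallest adjusted p, Ddr1, Meox2, Itga8, Egfl6, Pdgfra and Tcf21, the nearest profile of each marker, and the most abundant genes of the marker lists of other cells where a result turned on them. Library totals lay between 21479006 and 24914322 counts. How far they limit precision for low genes such as Fap was not tested.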

Additional observations from a re-analysis of the deposited data

How the results depend on the processing

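With 3 libraries a group, many calls were lost when 1 library was left out. The share of all genes called was then 1.44% to 6.6%, against 8.33% with all libraries. A call could thus be lost with the fold change almost unchanged, as for Cthrc1 and Fap without control replicate 3. With 1 library left out in turn, the number of the 10 markers called higher ranged from 0 to 2 and the number called lower was 0; over all genes, 204 to 606 were higher and 34 to 482 lower, against 810 higher and 530 lower with all libraries. In these fits 13 to 15 fibrotic, 3 to 6 adventitial, 0 to 1 alveolar and 0 to 2 peribronchial genes were higher, 0 to 1 adventitial, 0 to 2 alveolar and 1 to 2 peribronchial genes were lower, and the alveolar minus adventitial balance ranged from -0.41 to 0.42. Without replicate 1 of either group, 1 marker, 307 of all genes, 0 alveolar and 0 peribronchial genes were higher, and 166 of all genes and 0 adventitial genes were lower. The DESeq2 Wald test called 1279 genes higher and 1224 lower, among them 3 alveolar and 3 adventitial genes lower. By limma-voom 2 adventitial genes and 1 alveolar gene were lower; with DESeq2 size factors 0 alveolar genes were higher; with library totals 0 adventitial genes were lower. Under no filter, the filter of 1 CPM and the robust fit, 1 alveolar gene was lower.

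Markers that were not called changed sign in 7 cases: Dpt to -0.26 without TGFalpha replicate 1, -0.10 without control replicate 1, -0.12 without control replicate 3 and -0.38 without both replicate 1 libraries, Ddr2 to 0.07 without TGFalpha replicate 1 and 0.03 without control replicate 3, and Col13a1 to 0.05 without control replicate 2. With 1 library left out, the log2 fold change ranged from -0.26 to 0.33 for Dpt, from -0.22 to 0.071 for Ddr2 and from -0.53 to 0.051 for Col13a1. Deviations of samples with the same replicate number correlated at 0.42, -0.05 and 0.22 for replicates 1 to 3. From the TGFalpha side only replicate 1 correlated best with its own number, and from the control side replicates 1 and 3 did. The labels do not state a pairing, so the numbers are not taken as pairs, which these correlations do not settle. With the replicate number as a block, 2 markers were higher and 0 lower. Of all genes 802 were higher and 668 lower in that fit, with 3 alveolar, 3 adventitial and 2 peribronchial genes lower. The cause of these shifts was not tested. Depth was low for Fap, with 23 reads in its lowest library; how far depth rather than the spread between samples limits it was not tested.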
